A study of Mus musculus with 2 samples.

Results

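TRBV3 is one of the variable gene segments of the mouse T cell receptor (TCR) beta locus. Its members here were all TCR beta (TRB) contigs whose V segment was called TRBV3, which gave 568 chains in 566 of the 9117 cells and among 13104 contigs in all. The WT library held 261 of these chains in 261 cells, and the Btla KO library held 307 in 305 cells. Each library was made from thymic CD4 single positive (SP) T cells of mice aged 8 to 12 weeks, isolated with a negative selection kit for naive CD4 T cells. The WT mice carried the strain label C57BL/6J, and the others the label C57BL/6-Btla KO, a knockout of Btla in the germline and so in every cell. BTLA is an inhibitory receptor of lymphocytes, and the study examined its relation to the inhibitory receptor CD5 and to self-tolerance. These libraries were its check for changes of the TCR repertoire, next to experiments in mice with a fixed TCR. With 1 library per genotype and the number of mice behind each not given in the sources used here, no test between genotypes was made. Because the libraries hold TCR transcripts only, neither Btla nor Cd4 could be used to check the labels.

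A TCR beta chain is built in the thymus when a D segment is joined to a J segment and a V segment is then joined to both. Enzymes trim the ends of the segments and add bases without a template, so the joint, which becomes the third complementarity-determining region (CDR3), differs between cells, while CDR1 and CDR2 are fixed by the V segment. The CDR3 lies mainly over the peptide held by the MHC molecule, and CDR1 and CDR2 lie mainly over the MHC molecule itself.

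In the GRCm38 genome and its RefSeq annotation, Trbv3 lies on the plus strand of chromosome 6 from 41048394 to 41048824. It has 2 exons, the leader exon from 41048394 to 41048442 and the V exon from 41048527 to 41048824. Its upstream neighbour TRBV2 ends 398 bases before it, its downstream neighbour TRBV4 starts 10618 bases after it, and TRBD1 starts 484.4 kb after it. Every one of the 568 chains carried the same CDR1 and CDR2, each found at its place in the V exon. The 3′ end is given with its recombination signal, in which the capitals mark the heptamer and the nonamer that the recombinase recognises. The bases before the heptamer are the 17 germline bases that can enter the CDR3.
TRBV3 CDR1, chr6:41048613-41048627: tctaatcacctatat
TRBV3 CDR2, chr6:41048679-41048696: ttctacaatggtaaagtc
TRBV3 3′ end and signal, chr6:41048808-41048863: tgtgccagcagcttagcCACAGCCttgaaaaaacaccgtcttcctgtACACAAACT
TRBD1, chr6:41533201-41533212: gggacagggggc
TRBD2, chr6:41542163-41542176: gggactgggggggc

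The following CDR3s from single TRBV3 chains show how the joint varied, with the fewest and the most germline TRBV3 bases and steps between them. Lower case marks the bases that match germline TRBV3 on the left and the germline TRBJ segment on the right, each up to the first mismatch. Capitals mark the bases between them, some of which can match germline as well. In the chain with 7 bases kept, bases after the first mismatches match germline TRBV3 again at the same places. Among chains with the same number of kept bases, the one with most unique molecular identifiers (UMIs, the tags that count original transcripts) is shown.
17 bases kept, WT, TRBJ2-1: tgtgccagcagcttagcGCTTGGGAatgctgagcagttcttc
15 bases kept, WT, TRBJ2-3: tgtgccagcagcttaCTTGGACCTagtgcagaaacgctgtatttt
13 bases kept, Btla KO, TRBJ2-1: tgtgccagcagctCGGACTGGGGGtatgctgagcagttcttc
12 bases kept, WT, TRBJ2-2: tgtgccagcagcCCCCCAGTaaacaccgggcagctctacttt
7 bases kept, Btla KO, TRBJ2-3: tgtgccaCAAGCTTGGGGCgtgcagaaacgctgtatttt

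The WT library held 4141 TRB chains and the Btla KO library 5181, from 80347 and 75456 UMIs. Each share stands with its exact 95% binomial interval (Clopper-Pearson), which covers counting error only and leaves out differences between mice and between library preparations. They are called apart where the intervals of the 2 values did not overlap. The libraries shared 30 cell barcodes, and 2 WT and 0 Btla KO cells with TRBV3 carried one of these.

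TRBV3 made up 6.30% of WT TRB chains (5.58 to 7.09%) and 5.93% of Btla KO TRB chains (5.30 to 6.60%). The Btla KO share minus the WT share was -0.38 percentage points, with an interval of -1.37 to 0.60. Of the 22 V calls found, 2 (9.09%) were apart between the libraries, and TRBV3 was not one of them. TRBV3 ranked 5 of 22 calls in WT and 6 of 22 in Btla KO chains, the latter level with TRBV10. Its interval overlapped those of 7 other calls in WT and 8 in Btla KO chains. In both libraries the joint call TRBV12-2+TRBV13-2 was the only one wholly above it, with 7.92% of WT and 7.82% of Btla KO chains. The upstream neighbour TRBV2 made up 4.61% and 4.30%. No chain was called TRBV4, but the third framework region of the chains called TRBV10 was found once in chromosome 6, inside the RefSeq gene TRBV4. The name of that call and the RefSeq name therefore differ, and the absent call does not limit the use of the downstream neighbour. Chains called TRBV10 made up 4.59% of WT and 5.93% of Btla KO TRB chains.

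**Figure D1:**
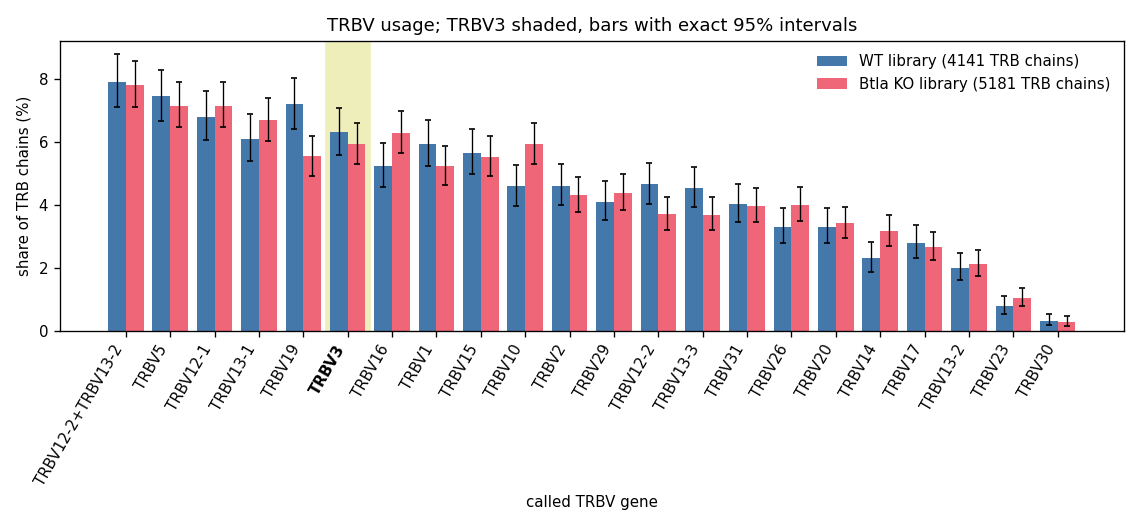
Share of TRB chains (%) for each of the 22 TRBV calls in the WT and Btla KO libraries, with exact 95% intervals and TRBV3 shaded. TRBV3 sits at 6.30% and 5.93%, among the more used calls, and its intervals overlap between the libraries.

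The TRBJ segments lie in a pair of clusters downstream of TRBD1 and TRBD2, and each cluster is followed by its own constant gene, TRBC1 or TRBC2. TRBV3 chains used all 12 TRBJ genes in both libraries. The most used in the WT library were TRBJ1-1 with 37 chains (14.2%), TRBJ2-7 with 34 (13.03%), TRBJ2-1 with 33 (12.6%) and TRBJ2-4 with 29 (11.1%). In the Btla KO library they were TRBJ2-5 with 48 chains (15.6%), TRBJ2-7 with 41 (13.4%), TRBJ2-4 with 36 (11.7%) and TRBJ2-3 with 31 (10.1%). TRBJ2-7 was the most used over both libraries, and its shares differed by 0.33 percentage points between them (-5.39 to 5.88). The other TRB chains used TRBJ2-7 more, at 16.1% of WT and 14.9% of Btla KO chains. None of the TRBJ genes listed here was apart from the other chains in either library.

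TRBJ1-6 was little used with TRBV3 in either library. It was found in 3 of 261 WT chains, or 1.15% (0.24 to 3.32%), where all other TRB chains had 4.33% (3.71 to 5.02%). It was found in 2 of 307 Btla KO chains, or 0.65% (0.079 to 2.33%), where the others had 3.75% (3.24 to 4.33%). TRBJ1-6 was the one TRBJ gene of 12 whose TRBV3 share was apart from that of the other chains in the same direction in both libraries. Over 18 TRBV calls with at least 100 chains in each library, 3 of 216 combinations of a V call and a TRBJ gene (1.39%) were apart in this way. The other combinations were TRBV15 with TRBJ1-6, at 0.43% and 0.35% of its chains, and TRBV15 with TRBJ1-2. In the WT library TRBJ1-2 was also apart, at 10.7% (7.25 to 15.1%) of TRBV3 against 6.16% (5.42 to 6.96%) of the other chains, while the Btla KO shares were 6.19% and 6.996%. Of the 216 combinations, 13 (6.02%) were apart in the WT library taken alone. The largest excess shared by both libraries was at TRBJ2-4, which was 2.68 percentage points above the other chains among WT cells and 3.27 above them among Btla KO cells, with overlapping intervals.

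TRBJ2-5, singled out after its values were seen, differed between the libraries within TRBV3. It was found in 19 WT chains, or 7.28% (4.44 to 11.1%), and in 48 Btla KO chains, or 15.6% (11.8 to 20.2%). The difference was 8.36 percentage points (3.09 to 13.5). The other TRB chains had 11.3% (WT) and 10.9% (Btla KO), so TRBV3 lay below them in one library and above them in the other, with overlapping intervals in each. The same call between libraries was made for 3 of 216 combinations (1.39%). Of the Btla KO TRBV3 chains with TRBJ2-5, 3 CDR3 sequences were each found in a pair of cells, and counting every distinct chain a single time gave a difference of 7.58 percentage points (2.22 to 12.8).

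The TRBJ2 cluster as a whole was used by 153 WT TRBV3 chains, or 58.6% (52.4 to 64.7%), and by 207 Btla KO TRBV3 chains, or 67.4% (61.9 to 72.6%). The difference was 8.81 percentage points (0.86 to 16.7), though the libraries' own intervals overlapped. TRBJ2-5, a gene of this cluster, alone differed by 8.36 percentage points, so the cluster difference is not a separate result. Other TRB chains used the TRBJ2 cluster in 60.3% (58.7 to 61.8%) of WT chains and 59.4% (58.0 to 60.8%) of Btla KO chains, so only the Btla KO TRBV3 share was apart from them, as were those of 5 of 18 V calls (27.8%), TRBV3 included, in that library. The constant gene calls followed the J clusters, with TRBC2 in 152 WT and 207 Btla KO chains and TRBC1 in 108 and 97.

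**Figure D2:**
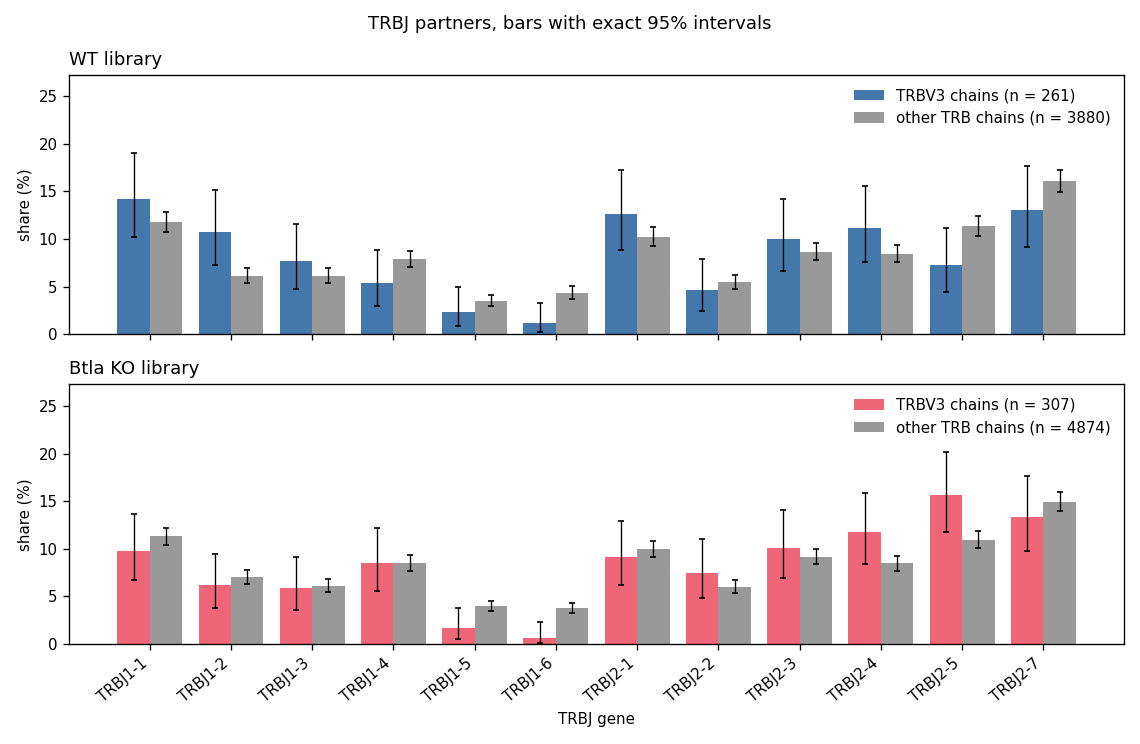
Share (%) of TRBV3 chains and of all other TRB chains that used each TRBJ gene, in the WT library (top) and the Btla KO library (bottom), with exact 95% intervals. TRBJ1-6 is low with TRBV3 in both panels, at 1.15% and 0.65%, and TRBJ2-5 is at 7.28% in the WT and 15.6% in the Btla KO panel.

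The TRBJ usage of TRBV3 was compared with that of other V calls over the 12 TRBJ genes by the total variation distance (0 where all shares are equal, 1 where no gene is shared). Averaged over both libraries, the nearest of 17 calls were TRBV12-2+TRBV13-2 at 0.135, TRBV20 at 0.142 and TRBV10 at 0.144, and the median over the 17 was 0.156. The distance of TRBV3 to itself between the libraries was 0.154, so the order of the nearest calls lies within the distance between the libraries.

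A D segment was called in 53 WT TRBV3 chains, or 20.3% (15.6 to 25.7%), and in 75 Btla KO chains, or 24.4% (19.7 to 29.6%). Other TRB chains had a D call in 23.7% and 22.7%. TRBD1 was called in 40 WT and 53 Btla KO chains, of which 21 and 26 had a TRBJ2 gene. TRBD2, which lies downstream of the TRBJ1 cluster, was called in 13 and 22 chains, and in none of them together with a TRBJ1 gene. For 0 among all 261 and 307 TRBV3 chains, the exact intervals reach 1.40% and 1.19%, and 3 counts of the total correspond to 1.15% and 0.98%. The other TRB chains had TRBD2 with a TRBJ1 gene in 3 of 3880 WT and 1 of 4874 Btla KO chains, below these limits.

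The germline TRBV3 end reads as the CDR3 start CASSL, with TTA as the codon of the leucine at position 5. CDR3s that began with CASS were found in 253 WT chains, or 96.9% (94.1 to 98.7%), and in 287 Btla KO chains, or 93.5% (90.1 to 96.0%). Among the other TRB chains, whose V segments encode different starts, these were 65.9% and 67.2%. Of the TRBV3 chains without it, 4 of 8 WT and 14 of 20 Btla KO chains began with CASR. The Btla KO minus WT difference in CASS starts was -3.45 percentage points, and its interval of -7.11 to 0.20 included 0.

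CASSL was the most frequent start of 5 residues, in 113 WT chains (43.3%, 37.2 to 49.5%) and 121 Btla KO chains (39.4%, 33.9 to 45.1%). Of these, 87 and 98 chains used the germline codon TTA, and the rest reached leucine with another codon. Among other TRB chains 16.1% and 16.9% began with CASSL. A CASSL share apart from that of all other chains in both libraries was common among V calls, found in 17 of 18 (94.4%), and TRBV3 ranked 5 of 18 in each library.

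The next starts of TRBV3 chains had lost part of the germline leucine codon. CASSP followed with 43 WT and 42 Btla KO chains, of which 38 and 42 kept exactly 12 germline bases. CASSS was found in 33 and 32 chains, of which 33 and 31 kept 13 bases, and CASSF in 19 and 31 chains, all of which kept 14, as a codon for serine or phenylalanine that begins with these germline bases requires. CASSR was found in 10 and 14 chains, of which 9 and 13 kept 12. These 5 starts covered 83.5% of WT and 78.2% of Btla KO TRBV3 chains, out of 23 and 30 distinct starts, and 16 different residues occurred at position 5 in each library.

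The whole germline end was rarely kept. All 17 bases were found in 16 WT chains, or 6.13% (3.54 to 9.76%), and in 7 Btla KO chains, or 2.28% (0.92 to 4.64%). Among other TRB chains, each set against its own V segment, 24.97% (23.6 to 26.4%) and 24.7% (23.5 to 25.9%) kept the whole end. Such a gap was common among V calls, as 13 of 18 (72.2%) were apart from the rest the same way in both libraries, 7 of them above and 6, including TRBV3, below. From the highest share, TRBV3 ranked 16 of 18 among WT chains and 17 of 18 among Btla KO chains. The ranks are not like for like, as the germline ends run from 14 to 17 bases. TRBV10, also among those below, has the stop codon TAA in frame in its germline end. A productive chain cannot keep that end whole, and none did. TRBV15, whose germline end differs from that of TRBV3 at 1 of 17 bases, had 4.27% and 2.80%, and the neighbour TRBV2 had 49.7% and 49.8%. The ends of TRBV10 and TRBV16 each differ from that of TRBV3 at 2 bases, and TRBV16 had 20.7% and 21.8%. The Btla KO minus WT difference for TRBV3 was -3.85 percentage points (-7.63 to -0.55), with overlapping intervals for the libraries' own shares.
TRBV3 germline CDR3 part: tgtgccagcagcttagc
TRBV15 germline CDR3 part: tgtgccagcagtttagc
TRBV2 germline CDR3 part: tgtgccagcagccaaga

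Loss of 5 bases was the most frequent outcome in both libraries. A kept end of 12 bases, which stops after the second serine codon, was found in 82 WT chains (31.4%, 25.8 to 37.4%) and 100 Btla KO chains (32.6%, 27.4 to 38.1%). From 13 to 16 kept bases, each length held 28 to 43 WT chains and 42 to 46 Btla KO chains. Fewer than 12 bases were kept in 16 WT and 25 Btla KO chains. The mean number of bases removed was 3.37 ± 1.83 (SD over 261 chains) in WT and 3.55 ± 1.77 (SD over 307 chains) in Btla KO chains, where other TRB chains had 2.60 and 2.63. The bases between the V and J parts numbered 10.2 ± 3.73 in WT and 11.2 ± 3.99 in Btla KO TRBV3 chains, and 10.5 and 10.7 in the other chains. An added base that happens to match the germline is counted as kept, while counting stops at the first mismatch. The kept ends can therefore be too long or too short. With 1 mismatch allowed, the mean kept end was 13.9 bases in WT and 13.8 in Btla KO chains, against 13.6 and 13.4 without.

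**Figure D3:**
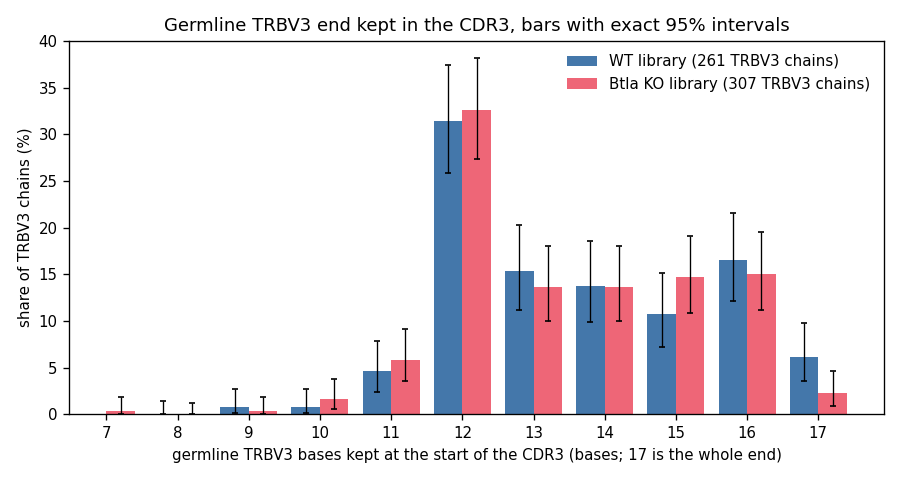
Share of TRBV3 chains (%) by the number of germline TRBV3 bases kept at the start of the CDR3, in the WT and Btla KO libraries, with exact 95% intervals. The peak lies at 12 bases in both, at 31.4% and 32.6%, and the whole end of 17 bases is found in 6.13% and 2.28%.

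The CDR3 of TRBV3 chains, with the cysteine and the phenylalanine at its ends included, had a mean length in amino acids of 14.2 ± 1.25 for WT and 14.4 ± 1.36 for Btla KO chains (SD over chains). The other TRB chains had 14.2 ± 1.53 and 14.3 ± 1.52. The spread among chains was narrower in TRBV3. Among the 18 V calls, the SD of TRBV3 was the smallest in the WT library and ranked 16 from the largest in the Btla KO library.

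The most frequent length, 14 amino acids, was more frequent in TRBV3 than in the other chains in both libraries. It was found in 98 WT chains, or 37.5% (31.7 to 43.7%), against 28.2% (26.8 to 29.7%) of the others. It was found in 110 Btla KO chains, or 35.8% (30.5 to 41.5%), against 28.7% (27.4 to 30.0%) of the others. TRBV3 was the only one of the 18 V calls (5.56%) whose share of this length was apart from the rest the same way in both libraries, and it had the highest share in each. The next highest were TRBV19 in WT, at 34.2% (28.9 to 39.9%), and TRBV26 in Btla KO, at 34.3% (27.9 to 41.2%). TRBV3 was not apart from either of these. This length was singled out after its values were seen. In cells with exactly 1 TRB chain the Btla KO share was 35.0% (29.4 to 40.8%) against 28.9% (27.6 to 30.3%), and the intervals then overlapped. Lengths ran from 10 to 18 in the WT library and from 9 to 19 in the Btla KO library.

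**Figure D4:**
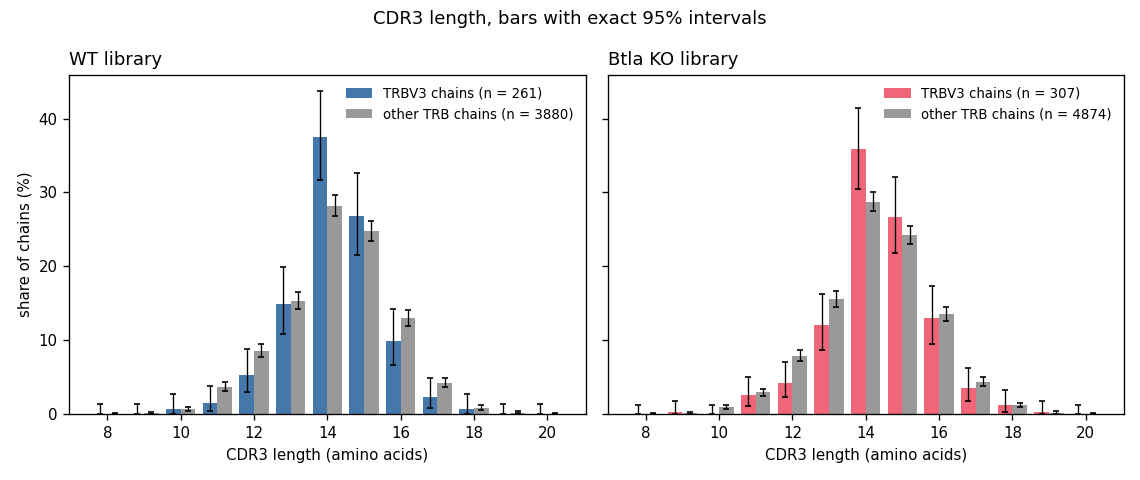
Share of chains (%) by CDR3 length in amino acids for TRBV3 and all other TRB chains, in the WT library (left) and the Btla KO library (right), with exact 95% intervals. Other chains shorter than 8 amino acids, 1 in each library, are not drawn, and at 14 amino acids TRBV3 reaches 37.5% and 35.8%, above the other chains at 28.2% and 28.7%.

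By J cluster, the mean length of TRBV3 CDR3s was 14.04 ± 1.13 with TRBJ1 and 14.4 ± 1.32 with TRBJ2 in the WT library. In the Btla KO library it was 14.3 ± 1.40 and 14.4 ± 1.34.

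Hydrophobic residues at positions 6 and 7 of the CDR3, which sit over the peptide and have been linked to self-reactivity, were rare. Both positions were hydrophobic (F, I, L, M, V, W or Y) in 7 of 261 WT chains, or 2.68% (1.08 to 5.45%), and in 7 of 307 Btla KO chains, or 2.28% (0.92 to 4.64%). The other TRB chains had 0.98% and 1.01%, and the intervals overlapped in each library.

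A TRA chain, the alpha chain that completes the receptor, was recovered in 110 of 261 WT TRBV3 cells, or 42.1% (36.1 to 48.4%), and in 125 of 305 Btla KO TRBV3 cells, or 41.0% (35.4 to 46.7%). Among other cells with a TRB chain these were 41.7% (40.1 to 43.3%) and 34.2% (32.8 to 35.6%). The TRBV3 cells carried 117 WT and 130 Btla KO TRA chains, from 17 and 15 TRAV subgroups, with genes of one number counted together. They formed 111 and 121 different pairs of a TRAV and a TRAJ gene, and no pair was found in more than 3 chains.

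TRAV14, TRAV6, TRAV7 and TRAV12 were the most used partners in the WT library, with 17 (14.5%), 12 (10.3%), 12 (10.3%) and 11 (9.40%) of 117 TRA chains. In the Btla KO library TRAV6 led with 26 of 130 (20.0%), followed by TRAV7 and TRAV13 with 21 each (16.2%) and TRAV14 with 17 (13.1%). These subgroups were also much used in other TRB cells. There TRAV6 made up 16.3% (WT) and 15.1% (Btla KO), TRAV7 12.8% and 14.9%, and TRAV12 11.1% and 11.3%. TRAV13 made up 10.6% and 10.5%, and TRAV14 8.87% and 10.5%. TRAV6 thus lay below the other cells in WT and above them in Btla KO, with overlapping intervals in each. TRAV6 was the most used over both libraries, with intervals of 5.41 to 17.2% and 13.5 to 27.9%. The difference of 9.74 percentage points (0.68 to 18.6) fell to 7.77 (-1.83 to 17.2) in cells with exactly 1 TRB chain, where the interval included 0.

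Against the TRA chains of other TRB cells, the subgroups with the largest difference of one direction in both libraries were TRAV14, higher by 5.66 percentage points in WT and 2.54 in Btla KO TRBV3 cells, and TRAV12, lower with differences of -1.68 and -3.66. The intervals overlapped for both subgroups. None of the 20 subgroups was apart in the same direction in both libraries, and over all 360 combinations of a V call and a subgroup the count was 0 as well. In the WT library TRAV17, with 7 chains (5.98%, 2.44 to 11.9%), and TRAV19, with 4 chains (3.42%, 0.94 to 8.52%), were above the other cells, and they were the 2 combinations of 360 (0.556%) apart in that library. In the Btla KO library TRAV17 was found in 0 and TRAV19 in 1 of 130 chains, and none of the 3 combinations apart there (0.833%) involved TRBV3.

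**Figure D5:**
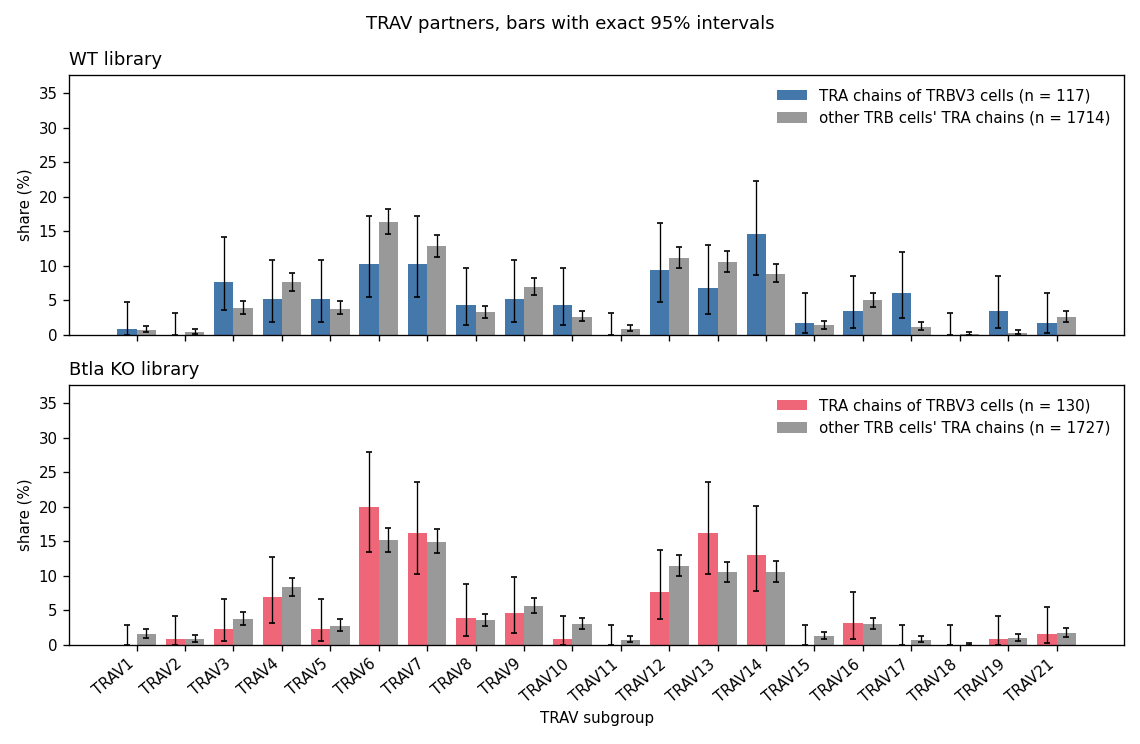
Share (%) of the TRA chains in TRBV3 cells and in all other TRB cells that used each TRAV subgroup, in the WT library (top) and the Btla KO library (bottom), with exact 95% intervals. TRAV6 is at 10.3% in the WT and 20.0% in the Btla KO panel, and TRAV14 is above the grey bar in both, with overlapping intervals.

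The semi-invariant alpha chains of iNKT cells (TRAV11 with TRAJ18) and of MAIT cells (TRAV1 with TRAJ33) were found in 0 of 117 and 0 of 130 TRA chains of TRBV3 cells, for which the exact intervals reach 3.10% and 2.80%, and 3 counts of the total correspond to 2.56% and 2.31%. Among the TRA chains of other cells TRAV11 with TRAJ18 made up 0.47% and 0.52%, below these limits.

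Contigs of TRBV3 held a median of 13 UMIs in the WT library (quartiles 8 and 21, range 2 to 140) and 9 in the Btla KO library (quartiles 5 and 15.5, range 1 to 65). Other TRB contigs had medians of 13 and 10. In reads TRBV3 was lower, with medians of 3456 against 4174 for WT and 1993 against 2947.5 for Btla KO contigs. The median reads per UMI were 276 against 341 and 241 against 298. TRBV3 contigs were long, with a median of 602 bases in both libraries against 544 and 541, the third longest of the 18 V calls. Across these 18 calls, which share the libraries, median contig length and median reads per UMI correlated with Pearson's r of -0.76 and -0.79 and Spearman's rho of -0.82 and -0.84, given as a description. The part of contig length in the lower reads per UMI of TRBV3 was not tested.

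Cells with TRBV3 that held a second TRB chain numbered 11 in WT and 19 in Btla KO. Of the TRBV3 chains, 4.21% (2.12 to 7.42%) and 6.84% (4.28 to 10.3%) lay in such cells, where the other TRB chains had 6.52% and 6.42%. In 2 Btla KO cells both chains were TRBV3. In the cells with 1 TRBV3 chain and 1 other, TRBV3 had more UMIs in 6 of 11 WT and 7 of 17 Btla KO cells. All 11 and 19 of these cells also had a TRA chain, as had all 132 WT and 167 Btla KO cells with more than 1 TRB chain. In TRBV3 cells with exactly 1 TRB chain a TRA chain was recovered in 39.6% and 37.1%. No caller of droplets with more than 1 cell was run.

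Most TRBV3 chains were found once. A nucleotide CDR3 was present in more than 1 cell for 9 of 251 distinct WT chains and 10 of 297 distinct Btla KO chains, which covered 19 WT cells (7.28%, 4.44 to 11.1%) and 20 Btla KO cells (6.56%, 4.05 to 9.95%). Among other TRB cells these were 6.97% and 9.10%. The largest held 3 WT cells. For 2 WT and 1 Btla KO sequence, a TRA chain was recovered in both cells of the pair, and it had the same CDR3 in each of the 3. These 3 are printed with their TRA genes after the sequence of the 3 WT cells, in which 1 cell had a TRA chain, of TRAV6D-6 and TRAJ18. Capitals mark the bases between germline V and J.
WT, 3 cells, TRBJ2-3: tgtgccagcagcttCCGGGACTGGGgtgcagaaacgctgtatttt
WT, 2 cells, TRBJ2-1, with TRAV12-3 and TRAJ32: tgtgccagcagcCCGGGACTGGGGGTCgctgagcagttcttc
WT, 2 cells, TRBJ2-7, with TRAV14-2 and TRAJ16: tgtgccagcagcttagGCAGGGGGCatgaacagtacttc
Btla KO, 2 cells, TRBJ2-4, with TRAV14-2 and TRAJ58: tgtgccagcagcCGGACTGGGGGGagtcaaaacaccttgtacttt

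No nucleotide CDR3 of TRBV3 was found in both libraries. At the level of amino acids 2 CDR3s were shared, 0.80% of the 251 WT and 0.68% of the 295 Btla KO ones, each found in 1 cell per library without a TRA chain. For all other V calls 16 were shared, 0.43% and 0.34%. In each shared pair the same residues were encoded by different bases between germline V and J, which are in capitals. These runs were 5 and 6 bases long in the pair with TRBJ2-1. They were 12 bases long in each of the pair with TRBJ2-4, where only the last base differed.
WT, TRBJ2-1: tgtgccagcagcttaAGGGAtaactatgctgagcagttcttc
Btla KO, TRBJ2-1: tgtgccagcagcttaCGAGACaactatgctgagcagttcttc
WT, TRBJ2-4: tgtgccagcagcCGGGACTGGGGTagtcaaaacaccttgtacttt
Btla KO, TRBJ2-4: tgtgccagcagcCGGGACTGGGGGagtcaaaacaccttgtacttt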

How the data were processed

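The authors assembled and annotated the reads of each library with Cell Ranger 7.2.0 against a GRCm38 reference. For each contig they deposited the count of reads and of UMIs, not normalized, and the length in bases. All deposited contigs were productive, full-length and assigned to a called cell. The 3 deposited summary tables were not used here.

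Chains were counted from the contigs, with every productive TRB contig kept. The germline end of each V segment was read from GRCm38 up to the first heptamer, and kept bases were counted from the cysteine codon to the first mismatch. Differences of shares have Newcombe 95% intervals, unadjusted for the number compared. With 1 library per genotype no test was made, and values per library rest on 261 and 307 chains. The exact intervals and the calls of apart were tested on simulated counts, at numbers near all TRB chains of a library. They were not tested at 261 or 307 chains, and the Newcombe intervals were not tested. Simulated junctions gave at least the simulated number of kept V bases, which their construction ensured. They held no mismatches in the V part, and J trimming was not checked. Python 3.11.15, pandas 2.3.3 and SciPy 1.17.1 were used.

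The members, gene lists and measures were chosen with earlier results of these data known. Named genes were TRBV3, its neighbours, the 3 V calls of most like TRBJ usage, the most used TRBJ genes and TRAV subgroups, and the 2 of each with the largest difference of one direction in both libraries. Others are named as chosen after their values were seen, as were TRBJ1-2, TRAV17, TRAV19, TRBV16, TRBV19 and TRBV26. The settings tried in turn were a minimum of 3 UMIs per contig, only cells with exactly 1 TRB chain, the TRB contig with most reads per cell, each distinct chain once, and barcodes of both libraries left out.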

Additional observations from a re-analysis of the deposited data

How the results depend on the processing

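The shares, means and medians of TRBV3 chains were recomputed under the alternatives, and those on the CDR3 length of 14, the whole germline end, TRBJ1-6 and TRBJ2-5 were added after seeing the data. Of 184 alternative values, 178 stayed within the interval, the SD over chains or the quartiles of the reported value. For means and medians this spread over single chains is wide, so staying within it shows little. A reversal could be called only for share differences whose reported interval excluded 0, and none was. The difference in hydrophobic residues at positions 6 and 7 changed from -0.40 to 0.048 percentage points in cells with exactly 1 TRB chain. With only contigs of at least 3 UMIs, a TRA chain was recovered in 29.8% of WT and 23.1% of Btla KO TRBV3 cells, since TRA contigs with fewer UMIs then drop out. Counting at least 1 hydrophobic residue at the positions gave 22.2% and 24.8%, and reads in place of UMIs gave medians of 3456 and 1993, by their construction. Among the share differences between the libraries that were recomputed, 4 had an interval that excluded 0. They were those of the TRBJ2 cluster, TRBJ2-5, the whole germline end and TRAV6. As TRBJ2-5 belongs to the TRBJ2 cluster, these are not all separate results. TRBJ2-5 and the whole end were added after seeing the data. The interval of TRAV6 included 0 in cells with exactly 1 TRB chain, at 7.77 percentage points. No paired analysis was possible because each genotype has 1 library. The 117 and 130 TRA chains limit every statement on TRAV partners.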
